A study of Mus musculus with 21 samples.

Results

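Nppa and Nppb, the genes of the natriuretic peptides ANP and BNP, were followed across RNA, GATA4 occupancy and open chromatin of the mouse embryonic ventricle at E12.5. They were taken by gene name, as 2 of the 24421 genes in a count table of endothelial cells (EC) and cardiomyocytes (CM). Their regions were all peaks from 50 kb before to 50 kb after the locus they share, a window of 116280 bp. This window held between 0 and 4 of the 2734 to 30447 GATA4 peaks of a library, and between 9 and 16 of the 55733 to 130708 ATAC peaks of a library.

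GATA4 is a zinc-finger transcription factor of the heart. The bioChIP assay tags it with biotin where a Cre is active and captures it on streptavidin beads. The Cre was Tie2-Cre, for the endothelial lineage, or Tnnt2-Cre, for cardiomyocytes, in 3 libraries each of 15 to 20 pooled ventricles. ATAC, which marks accessible DNA, came from GFP-positive sorted cells. There were 2 libraries of 40000 Tie2-Cre cells with the Rosa26fsTrap reporter, and 3 libraries each labelled Gata4 het and Gata4 ko, of 20000 cells with the Rosa26mTmG reporter. In both genotypes the Cre was Cdh5(Pac)-CreERT2, activated with 1 mg of tamoxifen at E9.5, so the het samples are no untreated wild type. RNA of these cells was not analysed here, so the loss of Gata4 was not checked. EC RNA came from 2 libraries of 60000 sorted Tie2-Cre; Rosa26fsTrap cells, and CM RNA from 3 libraries, for which the labels do not say how the cells were isolated. Tie2-Cre is also active in blood cells. Another 2 cardiomyocyte ATAC samples were not analysed here. The labels do not tie replicates to separate litters, so p-values measure only the spread between these samples, which may be technical.

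ANP and BNP are small hormones made as precursors by heart muscle cells. Both bind the guanylyl cyclase receptor encoded by Npr1, which raises cyclic GMP in the target cell, and both are removed by the clearance receptor encoded by Npr3. In the embryonic ventricle Nppa is a classical marker of the trabecular layer, and in the adult ventricle both genes rise again under load.

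The genes lie in tandem on the plus strand of chromosome 4 (mm10). Nppb spans chr4:147985788-147987205 and Nppa chr4:148000746-148002067, with starts 14958 bp apart and no other gene of the table between them. The stretches below are shown because GATA4 peaks of the Tnnt2-Cre libraries covered them. They are the plus strand of the RefSeq promoter table (GRCm38.p6), and capitals mark matches to the searched motifs. The Nppa stretch is chr4:148000472-148000721, the 250 bases before the RefSeq start. The Nppb stretch is chr4:147985795-147985824, inside the first exon of the count table but before the RefSeq start at position 147985900.
Nppa: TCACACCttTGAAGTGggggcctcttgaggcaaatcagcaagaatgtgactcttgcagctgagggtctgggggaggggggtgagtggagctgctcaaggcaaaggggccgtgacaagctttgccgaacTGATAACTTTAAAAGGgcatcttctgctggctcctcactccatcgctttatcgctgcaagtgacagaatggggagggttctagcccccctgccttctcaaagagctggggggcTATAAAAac
Nppb: GGAATGcagcTGATAAatcagAGATAAccc

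The capitals in Nppa are, in order, a T-box match (TCACACC), then TGAAGTG for NKX2-5, a GATA factor match with the letters TGATAA, a CArG box for SRF directly joined to it, and a TATA box. Those in Nppb are a TEAD match (GGAATG) and 2 GATA matches (first TGATAA, then the motif AGATAA). Further on lies the TATA box (TATAAAA), 31 bases before the RefSeq start. On both strands, GATA was searched as the letters TGATAA, as the letters AGATAA, and as either of these with G for the last base. T-box was searched as GGTGTGA, the NKX2-5 motif as TNAAGTG, the TEAD motif as CATTCC and the CArG box by its name. The TATA box was searched as TATAAAA. The GATA match of Nppa overlaps none of the others. Within 250 bases before the start, a GATA match stood in 26.5% of the 32851 RefSeq promoters and at least 2 in 6.40%. The T-box match stood in 3.33%, NKX2-5 in 10.1%, the CArG box in 6.18%, TEAD in 12.6% and TATA in 4.98%. A match describes letters and does not show binding.

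The first comparison asked how much Nppa and Nppb RNA each lineage held. Both were low in EC and high in CM, with no overlap between the groups. Nppa stood at 27.4 and 30.4 CPM (counts relative to the scaled library size) in the EC libraries and at 3592, 3136 and 2273 in CM replicates 1, 2 and 3. The EC pair was thus close together, while CM replicate 3 was the lowest of its group and still far above both. Group means were 28.9 ± 2.13 (SD, n = 2) in EC and 3001 ± 670 (SD, n = 3) in CM. By edgeR's quasi-likelihood test with Benjamini-Hochberg adjustment, Nppa was about 104-fold lower in EC, with a log2 fold change (EC minus CM) of -6.70 ± 0.21 (SE) and adjusted p = 5.44e-10. The fold changes, SE and adjusted p-values that follow come from the same fit.

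Nppb was about 39.0-fold lower in EC. It stood at 4.40 and 4.26 CPM in EC and at 186, 161 and 160 in CM replicates 1 to 3. CM replicate 1 was the highest and the other CM libraries nearly equal. Means were 4.33 ± 0.0986 (SD, n = 2) in EC and 169 ± 14.8 (SD, n = 3) in CM. Its log2 fold change in the edgeR fit was -5.28 ± 0.12 (SE), with adjusted p = 6.70e-11. The background is broad: 40.2% of the 14851 genes tested were lower in EC, 77.8% were called in either direction and 85.3% had groups that did not overlap, so being called says little about these genes. The size of the difference was less common, since 3.79% of genes had a log2 fold change under -5; Nppa had the 266th lowest value and Nppb the 515th. In bulk RNA, fewer cells of a type and less RNA per cell cannot be told apart.

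**Figure D1:**
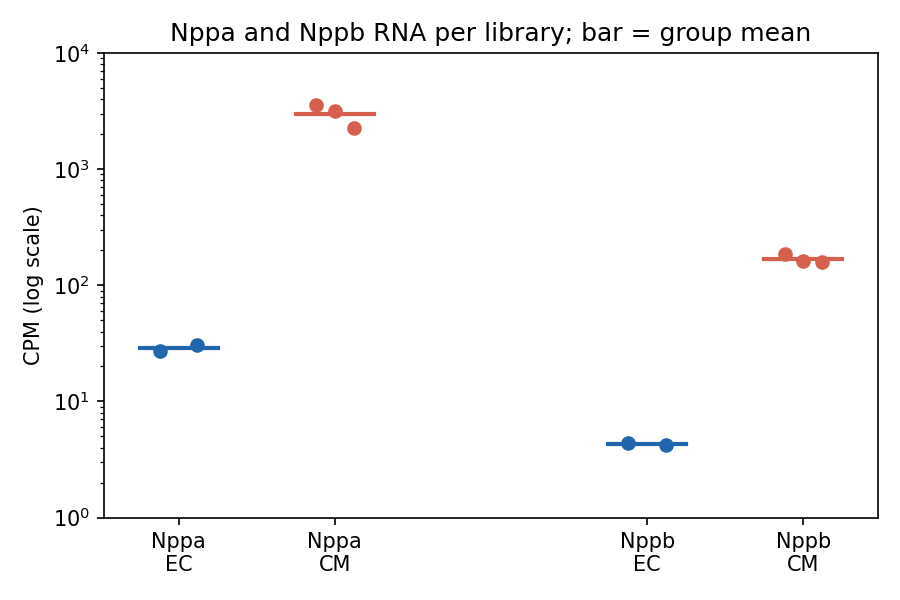
CPM of Nppa and Nppb on a log axis, 1 point per library (blue EC, n = 2; red CM, n = 3), bars at group means. Nppa lies at 27.4 to 30.4 in EC and 2273 to 3592 in CM, and Nppb at 4.26 to 4.40 and 160 to 186.

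Per kb of annotated exon, the order of the levels was Nppa in CM, Nppb in CM, Nppa in EC and Nppb in EC. RPKM (CPM per kb of exon) of Nppa were 4333, 3783 and 2742 in CM and 33.0 and 36.6 in EC. For Nppb they were 238, 206 and 205 in CM and 5.63 and 5.45 in EC. No neighbours in this order overlapped. On the same per-length scale Nppa ranked 6th, 7th and 8th of all genes in CM replicates 1 to 3, and 2019th and 1769th in the EC libraries. Nppb ranked 253rd, 289th and 285th in CM and 7858th and 7906th in EC.

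Nppa exceeded Nppb in each library, by unequal factors. The per-kb ratio of Nppa to Nppb was 5.87 and 6.72 in EC and 18.2, 18.4 and 13.4 in CM. All CM ratios were above both EC ratios. Means were 6.30 ± 0.608 (SD, n = 2) and 16.7 ± 2.82 (SD, n = 3), a 2.62-fold difference. An exact two-sided permutation test over the libraries gave p = 0.1, the smallest this design allows, so it cannot reach 0.05.

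The labelled cell types were checked against marker genes. All 10 endothelial markers were higher in EC and all 10 cardiomyocyte markers lower, and the sum of each list was above 0 in both groups. Cardiomyocyte markers summed to 457 and 458 CPM in EC and to 93574 to 103728 in CM, and endothelial markers to 5504 to 5561 in EC and 727 to 834 in CM. Of 5 endocardial markers, 4 were higher in EC and 1, Cytl1, was lower (log2 fold change -1.14). Of 8 epicardial and fibroblast markers, 3 were higher in EC and 5 lower, beside 37.5% and 40.2% of all genes. That list summed to 1297 and 1228 CPM in EC and to 515 to 537 in CM, so EC held RNA of such markers too. The EC level of Nppa was 0.962% of its CM level and that of Nppb 2.56%. For the 10 cardiomyocyte markers this share ran from 0.106% (Ttn, titin) to 2.16% (Actn2, alpha-actinin), with a median of 0.741%. Nppa thus fell inside the range of the markers, above 6 of the 10, and Nppb lay above all 10. The part of cardiomyocyte RNA in the EC values of Nppa and Nppb was not tested.

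**Figure D2:**
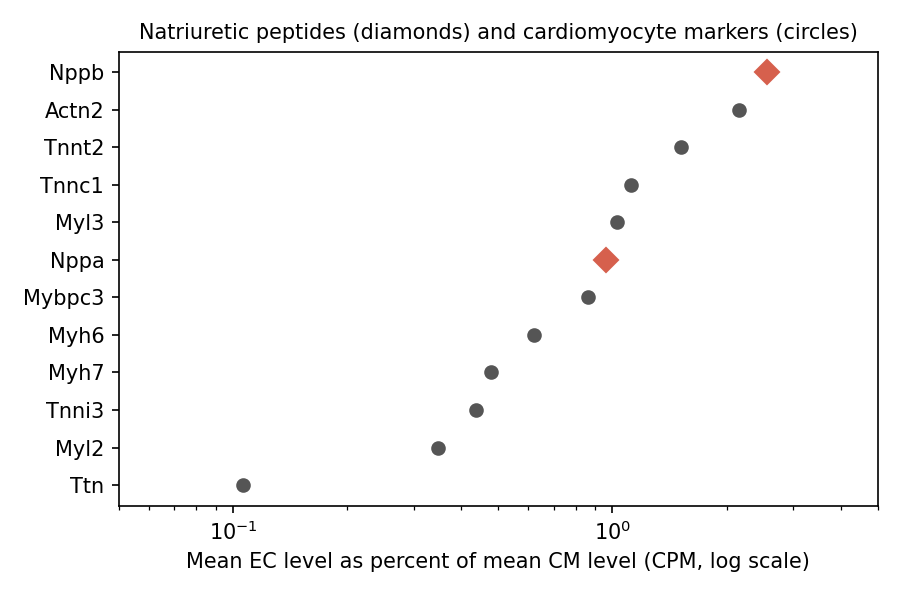
Mean EC level as percent of the mean CM level (CPM, log axis) for Nppa and Nppb (red diamonds) and 10 cardiomyocyte markers (grey circles). Nppa, at 0.962%, lies among the markers, which run from 0.106% to 2.16%, and Nppb, at 2.56%, above them.

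Among the CM libraries Nppa varied more than Nppb. The highest CM library had 1.58 times the Nppa of the lowest, with a coefficient of variation of 22.3% against 8.76% for Nppb. Some other genes had the same library order as Nppa, and the share of all genes with this order was not computed. The atrial light chain gene Myl4 stood at 7530, 6085 and 5715 CPM in CM replicates 1 to 3, and made up most of the sum of the 5 atrial markers, 7916, 6412 and 6022. Of the other atrial markers, Myl7 and Stard10 followed this order, while Sln (0.0416, 0.118 and 0.404 CPM) ran the other way and Nr2f1 (2.77, 3.06 and 2.40) did not follow it. Blood markers summed to 3068, 2288 and 1237 CPM, nearly all from the embryonic globin gene Hbb-y. The blood list of 7 summed to 17.8 to 19.4 CPM in EC, and Hba-a1 and Hbb-bt were at 0 in all 5 libraries. Of the 5 blood markers tested, 3 were lower in EC and 2 higher. The higher ones were Ptprc (log2 fold change 4.02) and Csf1r (1.40), with EC means of 1.36 and 4.81 CPM. Trabecular markers summed to 1003, 1104 and 994 CPM in CM and so did not follow that order. The part of atrial or blood RNA in the spread of Nppa was not tested.

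Most markers of both layers of the ventricular wall were lower in EC, as Nppa was. Of 7 trabecular markers, 6 were lower in EC and 1 higher, beside 40.2% of all genes lower, with a median log2 fold change of -5.20 against -0.06 over all genes tested. Of 4 compact wall markers, 3 were lower, Hey2 (-2.83) among them, and 1 was higher, with a median of -1.56. Among the trabecular genes, Smpx (-8.16), a small muscle protein gene, and Bmp10 (-5.75), a myocardial growth factor gene, were lower, and Sema3a was the gene that was higher, by 0.45.

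Genes whose profile over the 5 libraries lay nearest to that of Nppa, among 6851 with at least 20 CPM in every CM library, were Myl3, Mybpc3, Tmem71, Irx4 and Tnnc1. Their distances, Euclidean between centred log2 CPM profiles, were 0.452 to 0.582. Myl3, a ventricular light chain gene, had mean levels of 31.1 CPM in EC and 3028 in CM. Nearest to Nppb were Eno3, Mtus2, Hist1h1a, Myl9 and Srl, at distances of 0.184 to 0.256. The tandem neighbours were not each other's closest genes: Nppb was 123rd for Nppa and Nppa 201st for Nppb. With 2 groups, this measure mostly reads the size of the EC to CM difference.

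Receptors and processing enzymes divided between the lineages. Of 20 pathway genes 17 could be tested; 6 were higher in EC, 7 lower and 4 not called, beside 37.5% of all genes higher and 40.2% lower. Their median log2 fold change was -0.27, against -0.06 over all genes. All 3 receptor genes were among those higher in EC, where the ligand RNA was low.

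Npr1, the cyclase receptor of both peptides, stood at 32.7 and 36.9 CPM in EC and 8.24, 8.00 and 8.80 in CM. Its EC libraries were both above all CM libraries, and it was higher in EC by 2.06 ± 0.11 (SE) on the log2 scale (edgeR adjusted p = 2.14e-08). Npr3, the clearance receptor and an endocardial marker, stood at 931 and 918 CPM in EC and 254, 253 and 207 in CM. It too was higher in both EC libraries, by 1.96 ± 0.09 (SE) on the log2 scale. Npr2, the receptor of the C-type peptide, was higher by 0.38 (adjusted p = 0.0248, edgeR), a call that was lost without EC replicate 1 or without CM replicate 2. The C-type peptide gene Nppc was barely detected, with 9 and 0 counts in EC and 24, 21 and 12 in CM, and was not called (log2 fold change -1.25, adjusted p = 0.171, edgeR); without EC replicate 1 it was called lower in EC.

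The proteases that cut the precursors differed from each other in direction. Corin, which encodes the convertase of pro-ANP, stood at 44.8 and 46.7 CPM in EC and 61.6, 67.3 and 67.5 in CM and was lower in EC (log2 fold change -0.52). Furin, which cuts pro-BNP, stood at 148 and 139 CPM in EC and 16.6, 23.0 and 21.1 in CM, and was higher in EC by 2.83. Corin RNA thus differed far less between lineages than the RNA of its substrate. Pcsk6, whose product activates corin, was lower in EC (-4.86), and Galnt1, which glycosylates precursors, was higher (0.45). Pam, an amidating enzyme abundant in atrial granules, stood at 139 and 131 CPM in EC and 2190, 2168 and 1986 in CM (log2 fold change -3.97). Chga, Ostn and Cnga3 had too few counts to be tested.

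Genes that end or pass on the signal were mixed. The peptidase genes Mme (-1.80) and Ide (-0.85) were lower in EC, as was the cyclic GMP kinase gene Prkg1 (-0.80). The phosphodiesterase gene Pde2a was higher (1.70). Pde5a was lower (log2 fold change -0.27), a call that was lost without EC replicate 2, CM replicate 1 or CM replicate 2 and when libraries were scaled by total counts. Prkg2, Pde3a and Pde9a were not called, with log2 fold changes of -0.68, 0.01 and -0.08.

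**Figure D3:**
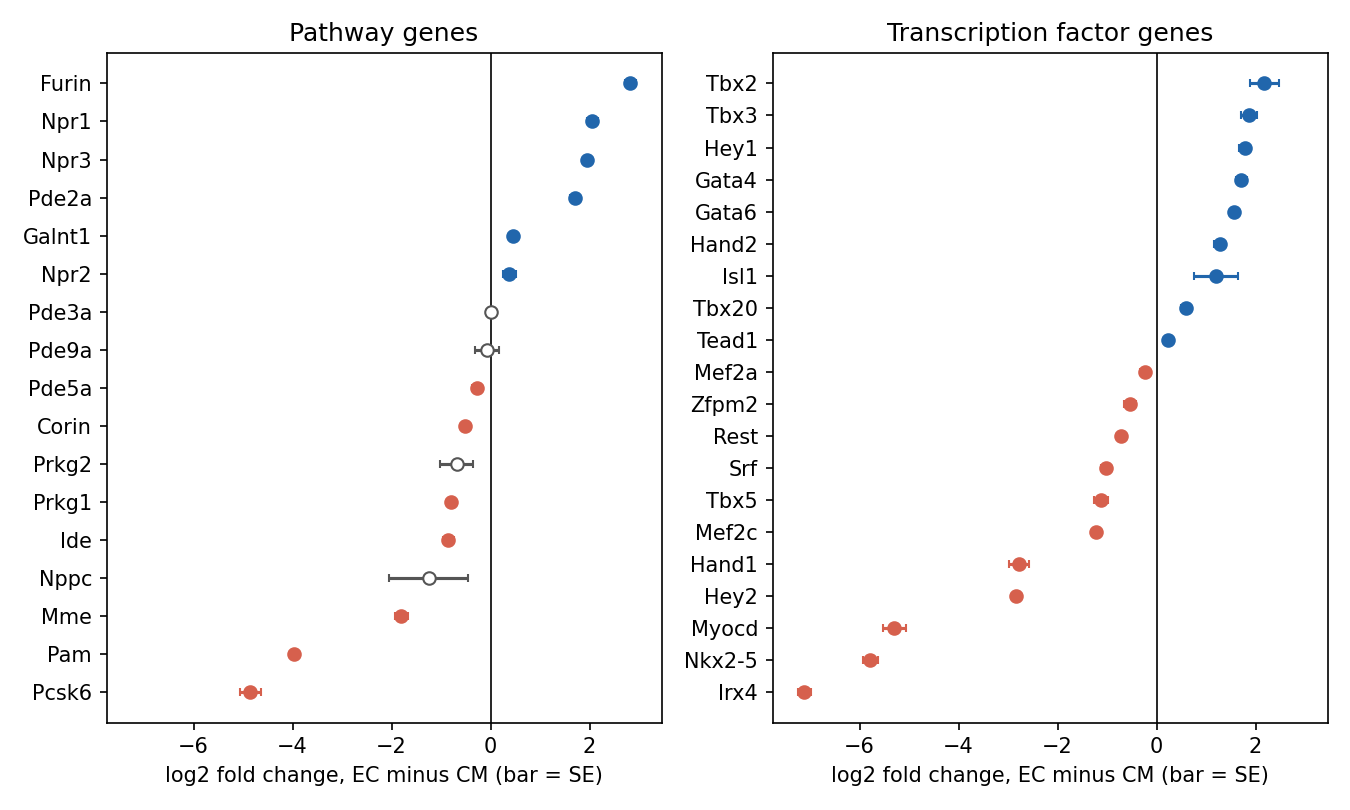
log2 fold change, EC minus CM, with its SE for 17 natriuretic pathway genes (left) and 20 transcription factor genes (right); blue higher in EC, red lower, open grey not called. Furin and Npr1 lead the genes higher in EC on the left at 2.83 and 2.06, and Irx4 is lowest on the right at -7.12.

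Transcription factor genes listed as candidate regulators of Nppa and Nppb were not all low where the peptides were low. Among them, only GATA4 had its binding measured here. Of 20 tested, 9 were higher in EC and 11 lower, beside 37.5% of all genes higher and 40.2% lower. The median log2 fold change was -0.39, against -0.06 over all genes. Gata4 stood at 253 and 244 CPM in EC and 63.5, 76.1 and 87.3 in CM, so the lineage with about 1 part in 104 of the Nppa RNA had 1.72 more Gata4 on the log2 scale. Gata6 was higher by 1.56, and Hand2 by 1.27. The T-box repressor genes Tbx2 and Tbx3 were higher by 2.18 and 1.86, and Tbx20 by 0.59. Hey1, a Notch-driven repressor gene, was higher by 1.78.

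Factors lower in EC included known activators of these promoters in heart muscle. The list was not divided into activators and repressors, so the factors below are not all to be read as activators. Nkx2-5 stood at 1.10 and 0.996 CPM in EC and 58.6, 53.6 and 62.8 in CM (log2 fold change -5.79). Its EC libraries were both near 1 CPM, while all CM libraries were above 50 CPM. The SRF coactivator gene Myocd (-5.30) and the ventricular Irx4 (-7.12) were lower too. Smaller differences were seen in Tbx5 (-1.13), Srf (-1.02), Mef2c (-1.22) and Rest (-0.71). Hand1 (-2.78), Hey2 (-2.83) and Zfpm2 (-0.54) were lower as well. Calls of Mef2a (-0.24), Tead1 (0.22) and Isl1 (1.19) were each lost when single libraries were left out.

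Genes next to Nppb and Nppa did not share their difference. Plod1 (log2 fold change 0.81) and 2510039O18Rik (0.48) were higher in EC. Clcn6, the gene next downstream of Nppa, stood at 9.15 and 9.69 CPM in EC and 9.35, 9.91 and 10.3 in CM and was not called (-0.06, adjusted p = 0.658, edgeR quasi-likelihood test).

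The next comparison asked where GATA4 lay around the genes in each lineage. In the window the Tie2-Cre libraries had 0, 0 and 1 GATA4 peaks and the Tnnt2-Cre libraries 3, 2 and 4, in replicates 1 to 3. Each Tnnt2-Cre library had more than any Tie2-Cre library. The mean difference, Tie2-Cre minus Tnnt2-Cre, was -2.67 peaks, with an exact two-sided permutation p = 0.1, the smallest this design allows. Peak lists were short in replicate 2 of both lineages, with 2734 peaks in Tie2-Cre and 3603 in Tnnt2-Cre, against at least 17682 in the others. With each list cut to its 2734 strongest peaks, the window held 0, 0 and 0 against 2, 2 and 2. The peak fold over background used below is the authors' value and only describes or ranks peaks within a list.

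The peaks formed 4 regions. The Nppb region, chr4:147985593-147986868, covered the Nppb start and its first exon. It had a peak in 3 of 3 Tnnt2-Cre and 0 of 3 Tie2-Cre libraries, with deposited fold of 8.42, 4.66 and 9.13 in Tnnt2-Cre replicates 1 to 3. These peaks were among the strongest 2.63% and 2.09% of the lists of replicates 1 and 3 and in the weaker part of the short list of replicate 2, at 71.0%. The Nppb summits lay 3, 33 and 27 bp from the nearest GATA match, either of the pair shown above.

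The Nppa region, chr4:148000285-148000773, covered the Nppa start. It had a peak in Tnnt2-Cre replicates 1 and 3, with fold of 6.41 and 6.57, at 21.3% and 21.4% of their lists from the top, and in 0 of 3 Tie2-Cre libraries. Tnnt2-Cre replicate 2 had no peak there. The Nppa summits lay 121 and 159 bp from the GATA match of the sequence shown, nearer to its upstream end with the T-box and NKX2-5 matches. On this measure the Nppa peaks were weaker within their lists than the Nppb peaks, whereas Nppa had more RNA per kb.

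The strongest peaks of the window lay at neither start. A distal region between genes, chr4:147969241-147969773, had its middle 16281 bp before the Nppb start. It had peaks in 3 of 3 Tnnt2-Cre libraries, with fold of 12.1, 6.55 and 12.6, at 0.693%, 34.2% and 1.02% of the lists. It was also the region with a Tie2-Cre peak, in replicate 3, with a fold of 5.84 at 47.0% of that list. A far distal region, chr4:147953388-147953835, at -32177 bp from the Nppb start and between genes, had a peak in Tnnt2-Cre replicate 3, with a fold of 7.19, and in no other GATA4 library.

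**Figure D4:**
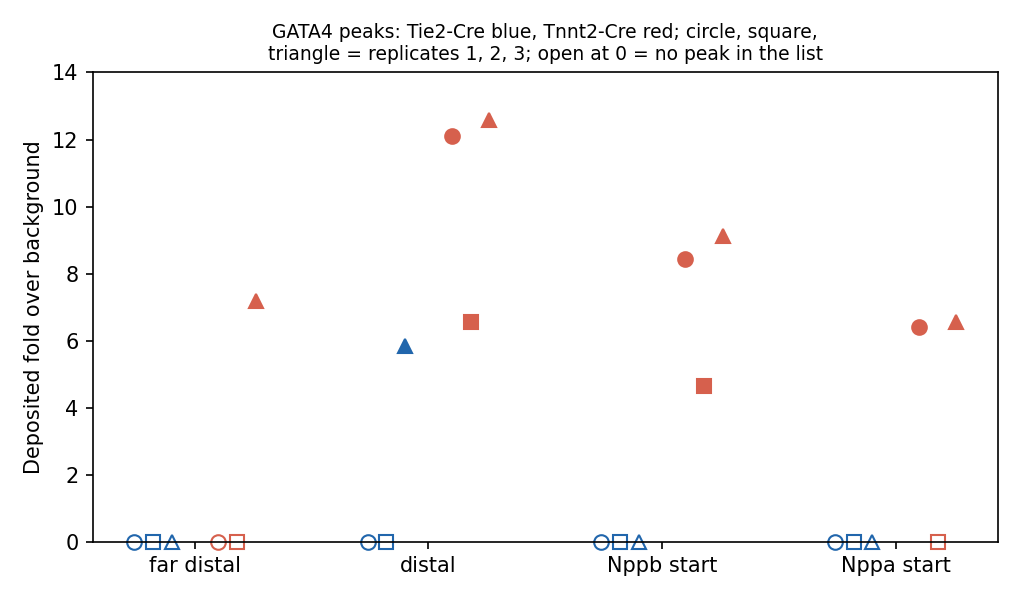
Deposited fold over background of the GATA4 peak in each library (blue Tie2-Cre, red Tnnt2-Cre, 3 libraries each) at the far distal, distal, Nppb and Nppa regions; open symbols at 0 mark libraries with no peak in the list, not a measured fold. The distal region holds the highest values, 12.1 and 12.6, and the single Tie2-Cre peak, at 5.84.

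Regions count as selective for a lineage when at least 2 of its 3 libraries have a peak there and 0 of the other lineage's do. The Nppa and Nppb regions were selective for Tnnt2-Cre, no region was selective for Tie2-Cre and none was shared. Of the 49798 merged GATA4 regions of the genome, 18.2% were Tnnt2-Cre-selective and 12.2% Tie2-Cre-selective, and 6.93% had peaks in 3 of 3 Tnnt2-Cre libraries, as the Nppb and distal regions did. Within 50 kb, 39.0% of 24277 genes had a Tnnt2-Cre-selective region and 15.0% had at least 2, so the pair near these genes is not rare; 28.1% had a Tie2-Cre-selective region, as neither Nppa nor Nppb did. A position on the promoter was: 1.41% of genes had such a region on the 250 bp before the start, as Nppa and Nppb did. Of 321 such genes tested for RNA, 50.5% were lower in EC, beside 40.2% of all genes. Without Tie2-Cre replicate 3 the distal region also became selective, giving 3 regions, and without Tnnt2-Cre replicate 1 or 3 the Nppa region was lost, leaving 1. With each list limited to its 2734 strongest peaks the count stayed at 2 but the regions changed: the Nppa region had a peak in 0 of 3 Tnnt2-Cre libraries and lost its call, and the distal region, with 3 of 3 Tnnt2-Cre and 0 of 3 Tie2-Cre libraries, became selective. The Nppb region kept its call there.

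**Figure D5:**
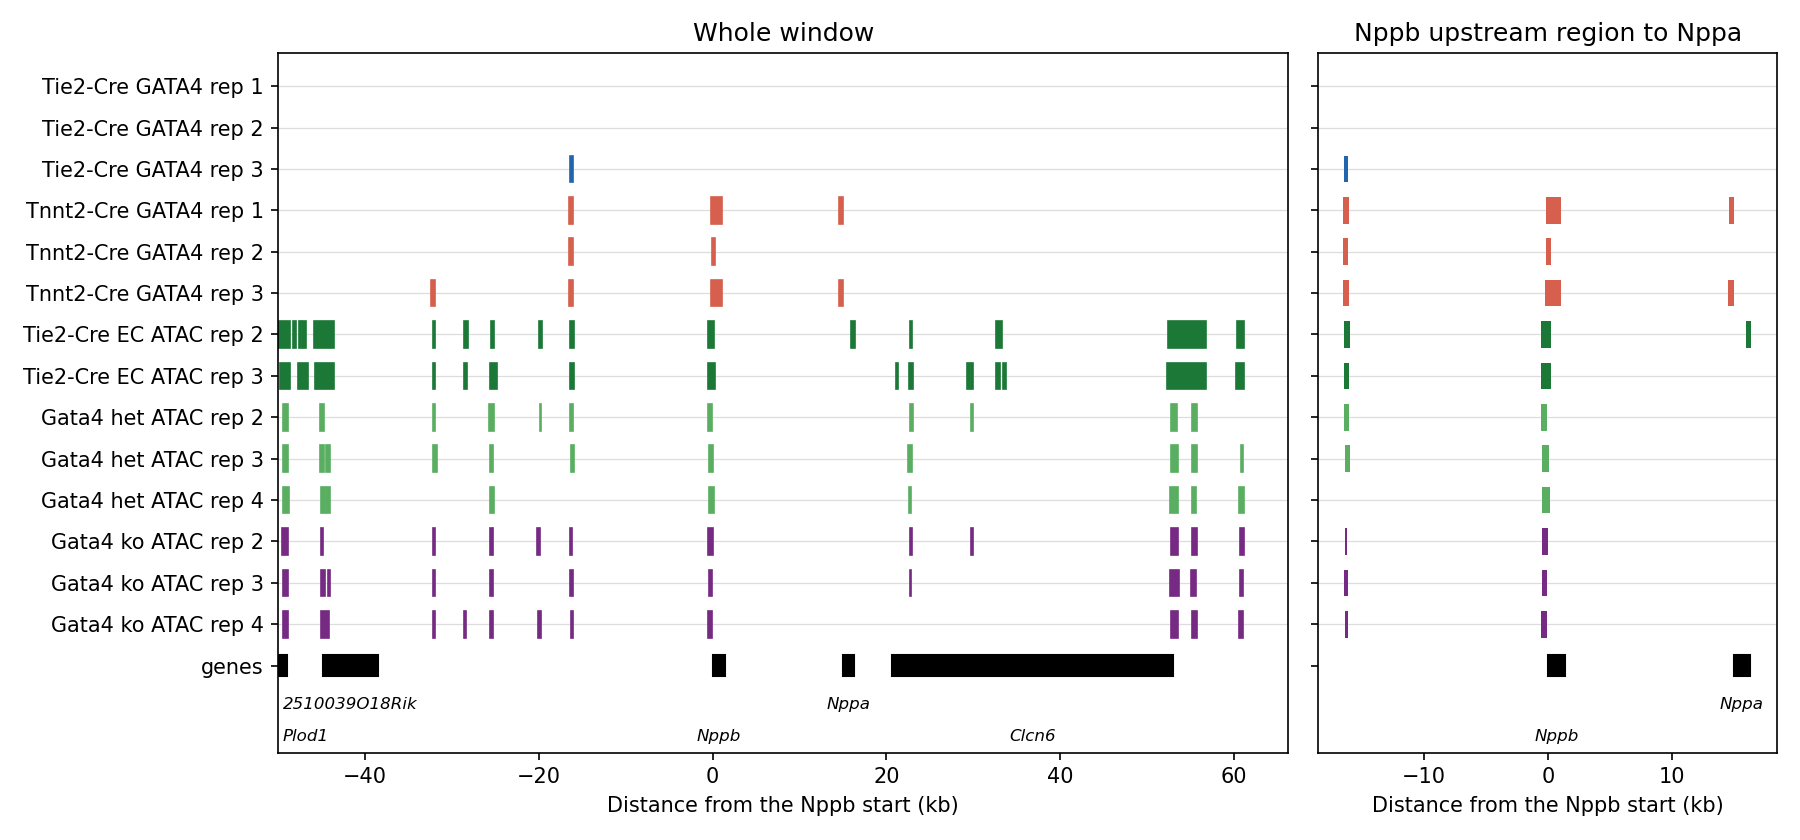
Peaks (coloured bars) in each of 14 libraries along the window, by distance from the Nppb start in kb, with Nppb, Nppa and 3 neighbouring genes in black; the right panel enlarges the stretch from the distal region to Nppa. GATA4 peaks at the gene starts appear in Tnnt2-Cre rows only. ATAC peaks on the 250 bp before the Nppb start appear in all 8 ATAC rows.

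Endothelial ATAC separated the promoters of Nppb and Nppa. All 8 endothelial libraries had an ATAC peak on the 250 bp before the Nppb start, and none had one within 1 kb of the Nppa start. Genome-wide, 48.8% of genes had a promoter peak in 8 of 8 libraries and 35.6% in 0 of 8. Among the 343 genes with a Tnnt2-Cre-selective GATA4 region on the promoter, as both had, 7.58% had an ATAC peak there in 0 of 8 libraries. Nppa was thus among the few such genes whose start carried no endothelial ATAC peak.

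At Nppb the deposited ATAC fold was 6.83 and 6.66 in the Tie2-Cre libraries, 6.39, 5.43 and 4.27 in het replicates 2 to 4, and 5.56, 4.24 and 4.55 in ko replicates 2 to 4. Values of het and ko overlapped. These peaks reached past the Nppb start of the count table, 147985788, in 2 of 2 Tie2-Cre, 2 of 3 het and 0 of 3 ko libraries. This count depends on the start used. The peak of ko replicate 2 ended at 147985778, just short of that start. Past the RefSeq start at 147985900 reached the peak of het replicate 4 (end 147985933) but not that of het replicate 3 (end 147985861). The difference between the genotypes was not tested. The Tie2-Cre summits lay at -97 and -95 bp from the Nppb start and the het and ko summits further upstream, from -387 to -253 bp. All ATAC summits thus lay upstream of the GATA4 summits of Tnnt2-Cre cells, which stood at 16, 63 and 57 bp. Tie2-Cre and Cdh5(Pac)-CreERT2 libraries differed in driver, reporter, dissociation kit and cell number, so no test was made between them. In Nppa the only ATAC peak lay in its downstream part, chr4:148001749-148002192, in Tie2-Cre replicate 2, with a fold of 3.67.

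The distal region also had ATAC peaks in endothelium, in 7 of 8 libraries. Fold there was 4.79 and 5.57 in Tie2-Cre, 5.19 and 5.27 in het replicates 2 and 3, and 3.57, 3.39 and 2.85 in the ko replicates. Het replicate 4 had no peak, so the genotypes did not separate by presence. With peaks limited to a −log10 q of at least 5, the distal region kept 2 of 3 het and 0 of 3 ko peaks, and with lists of equal length (55733 peaks) 2 of 3 het and 1 of 3 ko peaks. The difference between the genotypes was not tested there. The far distal region had ATAC peaks in 7 of 8 libraries too, again lacking in het replicate 4.

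The last comparison asked whether the window differed between Gata4 het and ko endothelium. ATAC peaks in the window numbered 11, 11 and 9 in het and 12, 11 and 11 in ko, and 16 and 16 in Tie2-Cre. The het and ko counts overlapped, with a mean difference, het minus ko, of -1.0 peaks (exact two-sided permutation p = 0.6). Of 19 merged ATAC regions, 9 had peaks in at least 2 of 3 libraries of both genotypes, and none had at least 2 in a genotype and 0 in the other. A further 7 regions appeared in Tie2-Cre libraries alone, whose lists were also longer, at 114599 and 130708 peaks against at most 90326. Genome-wide shares of these kinds of ATAC region were not computed, so the counts do not show how this window compares with others. How deep a library is and how its peaks were called decide whether a peak is listed, so a peak that is not listed does not show closed or unbound DNA.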

How the data were processed

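The deposited RNA table holds a read count for each gene and library; featureCounts 1.6.3 was run with strand setting 1 on mm10 genes, per the file headers. Bowtie 1.1.1, Bowtie2 2.2.9, STAR 2.7.3a, MACS2 2.2.4 and deepTools 3.3.1 are named without roles in the submitters' processing notes. GATA4 and ATAC peaks were deposited as 1 list per library, each peak with a fold over background and −log10 p and −log10 q values by the authors; no source here says whether a control was used. Total counts were 27660790 and 21682362 in EC and 42948614 to 48393473 in CM.

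The EC and CM libraries were compared with edgeR 4.0.16 in R 4.3.3: TMM scaling, the filterByExpr filter, the quasi-likelihood test and Benjamini-Hochberg adjustment over 14851 genes, with a threshold of 0.05. DESeq2 1.42.0 was the other tool. The SE of a log2 fold change is its size over the square root of its F value. Data were also simulated from the CM means with a fixed spread (14851 genes, 200 of them changed, 3 runs). There, 80.0% of genes changed 2-fold and 96.3% changed 4-fold were recovered, with 7.67 false calls per run. Far fewer genes were changed there than were called in the real comparison, so these rates do not describe it. All replicate pairs of RNA libraries differed beyond counting noise (chi-square over degrees of freedom, 7.84 to 33.9). Peaks were merged where they shared 1 bp, with Python 3.11.15, numpy 2.4.6 and pandas 2.3.3; figures used matplotlib 3.10.9. Shares of genes with peaks leave out 144 genes listed on more than 1 chromosome or strand.

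Named genes were Nppa, Nppb, all genes of the pathway and factor lists, the genes of the window (some listed genes are not reported here) and the 5 nearest profiles of each peptide gene. Named regions were the GATA4 regions of the window and the ATAC regions on them or within 1 kb of either start. Marker genes named singly, the ATAC peak in the downstream part of Nppa and the ATAC regions of the closing observations fall outside this rule and were chosen after their values were seen. Members and lists were chosen with earlier results of these data known.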

Additional observations from a re-analysis of the deposited data

How the results depend on the processing

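The log2 fold changes of Nppa and Nppb kept their direction and stayed past the threshold under all alternatives run, from -6.86 to -6.55 for Nppa and -5.32 to -5.21 for Nppb with a library left out. Genes called numbered 10601 to 11246 then and 10977 to 11938 with other settings, among them scaling by total counts, chosen after seeing the data. The log2 ratio difference of Nppa to Nppb (-1.39) ran from -1.54 to -1.29, the GATA4 peak difference from -3.17 to -2.17, the ATAC het minus ko difference from -1.33 to -0.333, Tnnt2-Cre-selective regions from 1 to 3 and ATAC regions from 17 to 19 with a library left out. The ATAC difference reversed to 0.333 with −log10 q of at least 5 and was 0 in the window of 100 kb each side; ATAC regions numbered 10 with 20 kb and 45 with 100 kb each side, as fewer or more bases were read.

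By correlation, same-numbered GATA4 libraries were not all closer than others. Same-numbered values were 0.0332, -0.269 and -0.194, and those of other pairs ran from -0.0296 to 0.247. List length did follow the replicate number in both lineages. It was 17682, 2734 and 25936 peaks in Tie2-Cre and 22814, 3603 and 30447 in Tnnt2-Cre replicates 1 to 3. Whether the numbers pair the GATA4 libraries thus stays unsettled. For ATAC the same-numbered correlations were 0.0439, 0.0362 and 0.121. All were above those of other pairs, -0.0752 to 0.0334, but small, so whether the numbers pair the ATAC libraries stays unsettled. For RNA, where EC and CM share 2 numbers, pairing was not checked. With the replicate block, Nppa was -6.86, Nppb -5.33, the ratio -1.54 (exact p = 0.5), the GATA4 difference -2.67 (exact p = 0.25), the ATAC difference -1.0 (exact p = 0.5) and 10977 genes were called. Short GATA4 lists in replicate 2 limit what absence there shows.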

Other observations

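In the window, 5 of the 19 ATAC regions had peaks in all 8 endothelial libraries, a share not computed genome-wide. Besides that at the Nppb start, they included regions at the starts of Plod1 and 2510039O18Rik and a region between genes, chr4:147960037-147961006, where no GATA4 library had a peak. The Clcn6 gene carried 1 ATAC region in 7 of 8 libraries, chr4:148008262-148008866, with its middle 7818 bp after the Nppa start, also without a GATA4 peak.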
